A study of Mus musculus with 14 samples.

Results

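The genes described here encode the soluble enzymes of the lysosome, the proteins of its membrane, 3 transcription factors that switch lysosomal genes on, and the subunits of its proton pump. The members are 34 genes chosen by symbol, together with every gene whose symbol begins with Atp6v0, Atp6v1 or Atp6ap, of which there were 25 after 1 pseudogene row was left out. They are 59 of the 20902 genes listed for 14 RNA sequencing libraries of C57BL/6 mice. Microglia, the resident macrophages of the retina, gave 9 libraries, with 3 at embryonic day 16.5 (e16.5), 3 at postnatal day 7 (P7) and 3 at the adult age P60. They came from mice of the genotype Cx3cr1-GFP, in which green fluorescent protein is made from the Cx3cr1 locus, a gene of mononuclear phagocytes in general and not of microglia alone. Cells were sorted as GFP+, CD45+ and CCR2-, and each library was a pool, of 1 to 2 litters at e16.5, of 5 to 12 retinas at P7 and of 7 to 14 retinas at P60. Whole retina of the genotype WT gave the other 5 libraries, of which 3 were central retina at e16.5, 1 was retina at P7 and 1 at P60. No treatment is named for any group. Genotype, sorting, RNA kit and cell mixture differ together between microglia and whole retina, so their effects cannot be told apart. In pooled cells, fewer cells with a transcript and less of it per cell cannot be told apart either.

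Lysosomes are acidic compartments that digest material a cell has eaten or no longer needs. Acid comes from the vacuolar proton pump, in which the V1 sector splits ATP in the cytosol and the V0 sector carries protons through the membrane. Many pump subunits are encoded by several genes that are used in different cell types. The enzymes inside include glycosidases, sulfatases, lipases and proteases, whose loss causes lysosomal storage diseases. TFEB, TFE3 and MITF bind the E-box CACGTG in promoters of many lysosomal genes, most often as the extended form TCACGTG. Microglia of the developing retina engulf dying neurons and synaptic material, which reaches the lysosome for digestion.

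Microglia libraries held 8996298 to 17446905 counts and whole retina libraries 20469100 to 24361772. Levels are given as CPM, counts per 1000000 counts of a library, scaled with TMM, with the replicates of a group in the order 1, 2 and 3. The 12 microglia markers listed summed to 16890 to 20240 CPM at e16.5, 14700 to 25170 CPM at P7 and 12250 to 17610 CPM at P60 in the microglia libraries, and to between 66.0 and 92.6 CPM in whole retina. Markers of retinal cell types had a median level of 7.28% to 8.50% of that in whole retina in the e16.5 microglia libraries and 5.92% to 6.41% at P7. At P60 the medians were 1.92%, 7.69% and 0.960%, so that replicate 2 held more retinal RNA than the other libraries of its age. Taken by list, the 4 amacrine and horizontal cell markers used at e16.5 stood higher, at 100.9% to 128.5%. The 2 bipolar cell markers used stood at 109.1% to 200.9%, and the other retinal lists at 28.6% or less at that age. P7 replicate 2 had the lowest level of its group for 29 of the 34 members other than the pump. Markers of monocytes, of which 4 of 5 were listed, summed to 92.4 to 138 CPM at e16.5, 61.8 to 90.7 CPM at P7 and 36.5 to 64.0 CPM at P60 in microglia. The 6 markers of border-associated macrophages summed to 28.3 to 80.5 CPM, 22.6 to 29.3 CPM and 30.8 to 77.5 CPM at the same ages. The 7 markers of Mueller glia and astrocytes also had their highest sums at P7, with 1037 to 1392 CPM, 2110 to 3984 CPM and 815 to 1057 CPM. Apoe, which macrophages also make, held much of that, and without it the sums were 682 to 820 CPM, 771 to 1375 CPM and 661 to 930 CPM, most of it Glul. Of the others, Rlbp1 reached at most 5.43 CPM, Aqp4 2.41 CPM and Gfap 0.682 CPM in any microglia library. Slc1a3 was higher, with 10.03 to 17.78 CPM at e16.5, 28.69 to 32.76 CPM at P7 and 53.3 to 80.31 CPM at P60. Vim had 33.97 to 51.37 CPM, 16.13 to 32.92 CPM and 2.663 to 11.83 CPM in microglia at the same ages. Whole retina libraries held 262 to 361.2 CPM of Slc1a3 and 113.6 to 531.2 CPM of Vim. The part of these other cells in the results below was not tested.

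The promoter sequences are shown for members whose levels are described below, because they carry the motif that names the TFEB family's targets. RefSeq promoter entries of build GRCm38.p6, each running from 250 bases before to 50 bases after a start site, matched 49 of the 59 members, with 60 windows. The motif CACGTG, which reads the same on both strands, was found in 13 of these windows (21.7%) and in 7.15% of all 32851 windows of the table. The extension TCACGTG, searched on both strands and always overlapping a CACGTG, was found in the same 13 windows (21.7%) and in 3.77% of all windows. Its carriers were the membrane protein genes Cln3, Lamp1 and Mcoln1, the enzyme genes Arsa, Gaa, Gla, Glb1, Lgmn and Sgsh, and the pump genes Atp6v0b, Atp6v0d1, Atp6v0e and Atp6v1a. Of the 9 members that passed the test between ages, 2 carried it (Lamp1 and Atp6v1a), as did 11 of the 40 other members with an entry. The matches are a description of letters and not of binding. Capitals mark each CACGTG with the T or A that extends it, and all sequences run 5′ to 3′ on the strand of the gene.
Lamp1, chr8:13158911-13159210, plus strand: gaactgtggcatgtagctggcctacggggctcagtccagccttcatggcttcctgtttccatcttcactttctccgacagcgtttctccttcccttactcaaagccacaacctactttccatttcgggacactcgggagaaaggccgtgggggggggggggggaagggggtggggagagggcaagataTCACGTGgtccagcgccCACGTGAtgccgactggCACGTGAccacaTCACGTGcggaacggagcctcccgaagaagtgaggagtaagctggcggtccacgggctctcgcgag
Atp6v1a, chr16:44139210-44139509, minus strand: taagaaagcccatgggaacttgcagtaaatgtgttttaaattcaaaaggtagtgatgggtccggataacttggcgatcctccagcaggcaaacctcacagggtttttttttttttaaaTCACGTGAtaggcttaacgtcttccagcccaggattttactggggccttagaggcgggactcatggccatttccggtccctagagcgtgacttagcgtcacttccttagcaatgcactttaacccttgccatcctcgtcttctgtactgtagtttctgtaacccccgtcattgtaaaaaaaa
Mcoln1, chr8:3500269-3500568, plus strand: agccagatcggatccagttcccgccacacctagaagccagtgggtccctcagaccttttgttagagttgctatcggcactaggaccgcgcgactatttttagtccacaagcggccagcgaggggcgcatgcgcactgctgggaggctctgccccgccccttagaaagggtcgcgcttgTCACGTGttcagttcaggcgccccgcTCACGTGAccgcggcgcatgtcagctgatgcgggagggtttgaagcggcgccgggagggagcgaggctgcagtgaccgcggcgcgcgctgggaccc
Atp6v0b, chr4:117887280-117887579, minus strand: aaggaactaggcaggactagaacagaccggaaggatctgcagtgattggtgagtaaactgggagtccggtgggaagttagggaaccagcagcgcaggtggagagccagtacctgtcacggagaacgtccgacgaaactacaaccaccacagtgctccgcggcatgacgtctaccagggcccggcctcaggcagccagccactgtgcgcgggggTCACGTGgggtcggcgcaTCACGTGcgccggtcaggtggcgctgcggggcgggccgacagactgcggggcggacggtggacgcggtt

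With the start base of the RefSeq entry counted as 0, the 4 motifs of Lamp1 began at -61, -45, -28 and -15. Those of Mcoln1 began at -71 and -45, those of Atp6v0b at -36 and -18, and the single one of Atp6v1a at -131. The Atp6v1a window lies wholly inside the gene as GENCODE places it (chr16:44085402-44139705, minus strand). Its RefSeq start is thus not the GENCODE gene start. Lamp1 was the only member with more than 2 of them in a window.

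The lysosomal enzymes and membrane proteins had their highest summed level in microglia at P7 and their lowest at P60. The 34 members other than the pump summed to 13750, 13320 and 16140 CPM at e16.5, to 22360, 14720 and 25040 CPM at P7, and to 10300, 7940 and 10060 CPM at P60. P7 replicate 2 lay within the range of e16.5, while all 3 libraries of P60 lay below all 6 earlier ones. The 25 pump genes summed to 1546, 2021 and 2311 CPM at e16.5, to 2366, 1702 and 2440 CPM at P7, and to 1367, 1132 and 1353 CPM at P60. Here too the P60 libraries lay below the other 6. Whole retina held far less of the enzymes and membrane proteins, with 2016, 1955 and 1987 CPM at e16.5, 2350 CPM at P7 and 2593 CPM at P60. Its pump genes summed to 1909, 1823 and 1851 CPM at e16.5, within the range of microglia, and to 2543 CPM at P7 and 3118 CPM at P60, above every microglia library of those ages.

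**Figure D1:**
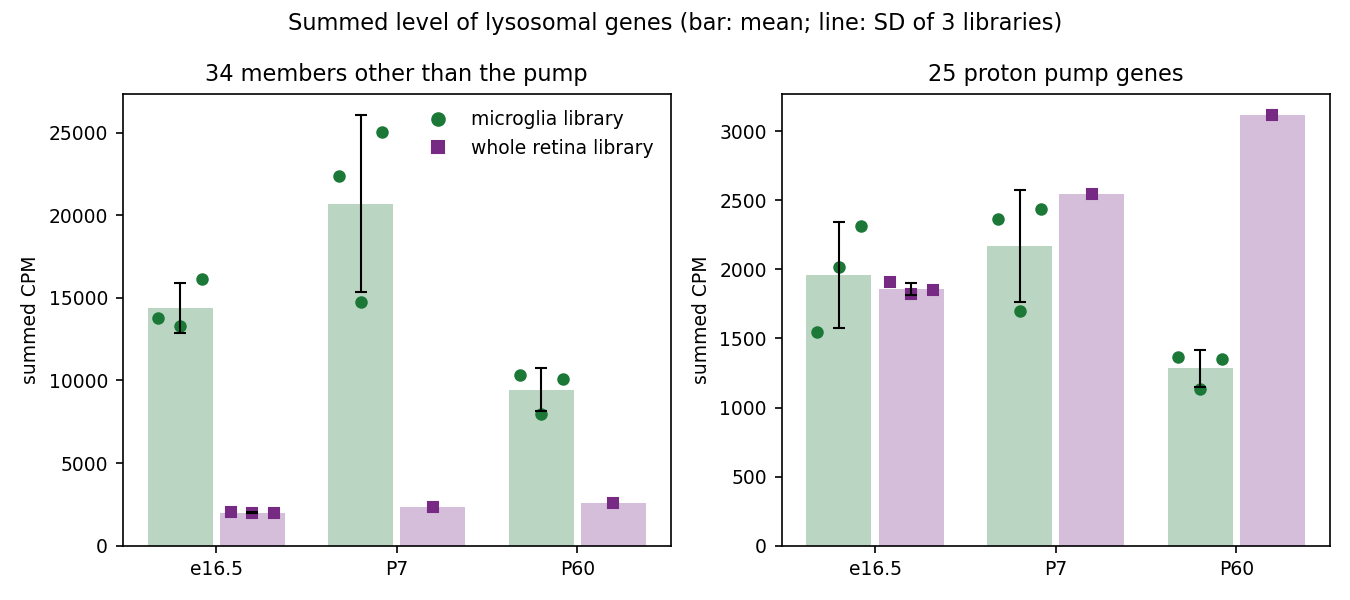
Summed CPM of the 34 members other than the pump (left) and of the 25 pump genes (right) by age. Circles are microglia libraries and squares whole retina libraries, bars are means and black lines the SD of 3 libraries. Microglia exceed whole retina at every age on the left, whereas on the right the pump genes overlap at e16.5 and lie below whole retina at P7 and P60.

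The first comparison between ages asks which lysosomal genes differed between the embryo and the first postnatal week. No member passed the threshold of an adjusted p under 0.05 in edgeR among the 53 of 59 members tested, and 0.2% of all 16019 genes tested did (32 genes). The 6 members left out by the filter on low counts, all pump genes, are described with their subunits. Of the 53, 11 had an unadjusted edgeR p under 0.05, beside 1245 of all 16019 genes. The libraries of 11 lay entirely higher at P7 while none lay entirely lower, beside 7.52% and 6.52% of all genes. The median log2 difference of the tested members was 0.41 beside -0.02 over all genes. It was 0.52 for the 34 members other than the pump, of which 30 had a positive value (48.8% of all genes did), and 0.01 for the 19 pump genes tested, of which 10 did. By role, all 8 membrane protein genes, all 8 glycosidase genes and all 7 genes for lipid enzymes and lipid-binding proteins had positive values, as did 3 of 5 sulfatase genes, 1 of 2 proteases and 2 of 3 transcription factors. Scaling by total counts alone or by size factors turned the pump median to -0.03 or -0.01. DESeq2 called 4 of the 53 members higher at P7 (Cd68, Lipa, Mitf and Tpp1), beside 0.993% of all genes called higher.

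Cd68, a heavily glycosylated membrane protein of macrophage lysosomes (chr11:69664213-69666153), came closest to the threshold. Its levels were 261, 341 and 251 CPM at e16.5 and 917, 527 and 817 CPM at P7, with every P7 library above every e16.5 library. The log2 difference was 1.38 (SE 0.265, adjusted p = 0.0694), and over 18 alternative fits its adjusted p ran from 0.000799 to 0.372. Mitf, the microphthalmia transcription factor, had 34.2, 40.2 and 50.3 CPM at e16.5 and 107, 129.9 and 149.8 CPM at P7, a log2 difference of 1.61 (SE 0.349, adjusted p = 0.114). Its libraries did not overlap either, and its adjusted p ran from 0.000788 to 0.590 over the alternatives. Lipa, the acid lipase that frees cholesterol from its esters, had 185, 130.5 and 275 CPM at e16.5 and 686, 369 and 697 CPM at P7, a log2 difference of 1.54 (SE 0.436, adjusted p = 0.293).

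The second comparison asks which lysosomal genes differed between the first postnatal week and the adult, and here 8 of the 53 tested members fell from P7 to P60 and none rose. That is 15.1% of the members, beside 1.35% of all 16019 genes called in either direction and 1.09% called lower. The 8 were the membrane proteins Lamp1 and Cd68, the enzymes Gusb, Lipa and Tpp1, the secreted regulator Grn, the transcription factor Mitf and the pump subunit Atp6v1a. Positive values were found for 7 of the 53 members, beside 52.4% of all genes, with a median log2 difference of -0.98 beside 0.07 over all genes. The libraries of 28 members lay entirely lower at P60 and those of 2 entirely higher, beside 12.9% and 11.1% of all genes. Scaling by total counts alone moved the median of all genes by 0.22, changed the split of all calls from 42 higher and 175 lower to 61 higher and 99 lower, and left 5 members called, all lower. DESeq2 called 20 of the 53, all lower, beside 5.24% of all genes called lower. With 1 library left out at a time, edgeR called 0 members without P7 replicate 3, 1 without P7 replicate 1, 1 without P60 replicate 2 and 3 without P60 replicate 3, and 6 to 8 without any 1 of the others. The log2 differences of the 8 genes lay between -2.72 and -1.17 over all alternatives.

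Among the 8 membrane protein genes, 2 fell. Lamp1 (chr8:13159161-13175338), a main structural glycoprotein of the lysosomal membrane and the member with 4 E-boxes shown above, had 560.2, 690.3 and 825 CPM at e16.5, 1238, 976 and 1578 CPM at P7 and 410.4, 348 and 393 CPM at P60. All 3 adult libraries lay below the 6 earlier ones and above all 5 whole retina libraries, which held 245 to 289 CPM. From P7 to P60 it fell 3.20-fold, a log2 difference of -1.68 (SE 0.249, adjusted p = 0.00987) that stayed past the threshold in 17 of 18 alternative fits. Cd68 had 264, 265 and 302 CPM at P60, within its range at e16.5, and fell 2.64-fold from P7, a log2 difference of -1.40 (SE 0.265, adjusted p = 0.0318) that passed in 11 of 18 alternatives. The other 6 did not pass the test.

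Lamp2, the second major membrane glycoprotein and a receptor for chaperone-mediated autophagy, had 713, 887 and 864 CPM at e16.5, 1229, 739 and 982 CPM at P7 and 819, 489.9 and 643 CPM at P60. P7 replicate 2 lay among the adult libraries, and the log2 difference from P7 to P60 was -0.56 (SE 0.263, adjusted p = 0.311). Laptm5, a membrane protein of blood-cell lysosomes, had 1267, 723 and 1757 CPM at e16.5, 2224, 957 and 2018 CPM at P7 and 1008, 933 and 705 CPM at P60, with a log2 difference from P7 to P60 of -0.93 (SE 0.364, adjusted p = 0.223). Its replicates spread widely at e16.5 and P7 and the ages overlapped. Mcoln1, the calcium channel that signals to TFEB from the lysosome, had 75.5, 101 and 97.0 CPM at e16.5, 91.4, 104 and 94.2 CPM at P7 and 132, 136 and 131 CPM at P60. Its adult libraries were narrowly spread and lay above the other 6, the reverse of Lamp1, with a log2 difference from P7 to P60 of 0.50 (SE 0.269, adjusted p = 0.376). Npc1, the cholesterol exporter of the membrane, Scarb2, the receptor that brings glucocerebrosidase to the lysosome, and Cln3, mutated in Batten disease, had log2 differences of -1.12, -0.88 and -0.70, none past the threshold.

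All 8 glycosidase genes had negative values from P7 to P60, and 1 passed the test. Gusb (chr5:129989011-130003049), beta-glucuronidase, had 357, 327 and 314 CPM at e16.5, 488, 264 and 468 CPM at P7 and 175, 70.0 and 95.4 CPM at P60. The adult libraries lay below all earlier ones, and it fell 3.50-fold from P7, a log2 difference of -1.80 (SE 0.359, adjusted p = 0.0362) that passed in 8 of 18 alternatives. Man2b1, an alpha-mannosidase with the highest per-length median of the group over the 9 microglia libraries, though below Fuca1 at P60, had 1688, 1255 and 1283 CPM at e16.5, 2315, 1233 and 2189 CPM at P7 and 1379, 706 and 753 CPM at P60. Its P60 replicate 1 overlapped the P7 range, and the log2 difference was -0.98 (SE 0.318, adjusted p = 0.158). Fuca1, an alpha-fucosidase, had 69.5, 84.3 and 99.4 CPM, 148, 98.3 and 196 CPM and 46.9, 112 and 126 CPM at the 3 ages, which overlapped, and a log2 difference from P7 to P60 of -0.59 (SE 0.400, adjusted p = 0.481). Gaa, the glycogen-splitting acid glucosidase, and Gla, the galactosidase lacking in Fabry disease, had larger differences that missed the threshold, with log2 values of -2.18 (SE 0.509, adjusted p = 0.0631) and -1.77 (SE 0.420, adjusted p = 0.0663). Both had adult libraries entirely below those of P7. Hexa, the alpha chain of hexosaminidase A, and Idua, alpha-L-iduronidase, had values of -1.05 and -0.52, and Glb1, beta-galactosidase, of -1.32.

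The sulfatase genes followed no common course. Arsb (chr13:93771630-93943016), arylsulfatase B, which removes sulfate from dermatan sulfate, had 1731, 1324 and 2260 CPM at e16.5, 1196, 942 and 1566 CPM at P7 and 589.7, 527 and 622 CPM at P60. Its mean was highest in the embryo, but the libraries of e16.5 and P7 overlapped, with a log2 difference of -0.54 (SE 0.259, adjusted p = 0.676). From P7 to P60 the log2 difference of Arsb was -1.05 (SE 0.261, adjusted p = 0.0774). Ids, iduronate 2-sulfatase, had 245, 262 and 314 CPM at e16.5, 392, 276 and 475 CPM at P7 and 190.1, 76.1 and 269 CPM at P60, a log2 difference from P7 to P60 of -1.05 (SE 0.396, adjusted p = 0.210). Galns had a value of -2.23 and Arsa of -0.09, while Sgsh, at 1.27 to 11.7 CPM in the microglia libraries, had a positive value of 0.97, none past the threshold.

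Of the 7 genes for lipid enzymes and lipid-binding proteins, all with negative values, Lipa passed the test. Lipa (chr19:34492318-34527474) had 202, 61.7 and 111 CPM at P60, below every P7 library, and fell 4.56-fold, a log2 difference of -2.19 (SE 0.446, adjusted p = 0.0402) that passed in 7 of 18 alternatives. Psap, the precursor of the saposins that help enzymes reach membrane lipids, had 1062, 1629 and 1542 CPM at e16.5, 1481, 1442 and 2890 CPM at P7 and 786, 872 and 923 CPM at P60. Its adult libraries lay below the other 6, with a log2 difference of -1.13 (SE 0.293, adjusted p = 0.0912). Asah1, acid ceramidase, had 430.1, 387 and 383 CPM, 703, 388 and 624 CPM and 399, 197 and 367 CPM at the 3 ages and a log2 difference of -0.79 (SE 0.311, adjusted p = 0.225), with P60 replicate 1 above P7 replicate 2. Gm2a, the activator of ganglioside breakdown, Npc2, which hands cholesterol to NPC1, and Ppt1, a thioesterase that strips palmitate from proteins, had values of -1.17, -1.05 and -0.64, none past the threshold. Smpd1, acid sphingomyelinase, was low throughout, with 10.8, 12.9 and 4.64 CPM at e16.5, 23.4, 6.28 and 16.4 CPM at P7 and 13.4, 13.5 and 4.98 CPM at P60, a log2 difference of -0.49 (SE 0.704, adjusted p = 0.758).

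Both proteases were abundant. Tpp1 (chr7:105744811-105752235), a tripeptidyl peptidase lost in a childhood form of neuronal ceroid lipofuscinosis, had 643, 489 and 539 CPM at e16.5, 1298, 758 and 1400 CPM at P7 and 343, 412 and 364 CPM at P60. The 3 ages did not overlap, and it fell 3.00-fold from P7 to P60, a log2 difference of -1.58 (SE 0.269, adjusted p = 0.0190) that passed in 12 of 18 alternatives. Lgmn, the asparaginyl endopeptidase legumain, had 923, 820.4 and 1095 CPM at e16.5, 1166, 664 and 1027 CPM at P7 and 741, 443 and 711 CPM at P60. P7 replicate 2 lay among the adult libraries and the log2 difference was -0.55 (SE 0.279, adjusted p = 0.345). Grn (chr11:102430315-102437048), which encodes progranulin, a secreted protein needed for lysosome function in microglia, had 1208, 1149 and 1203 CPM at e16.5, 2341, 1637 and 2826 CPM at P7 and 583, 521 and 997 CPM at P60. No age overlapped another, and it fell 3.14-fold from P7 to P60, a log2 difference of -1.65 (SE 0.292, adjusted p = 0.0222) that passed in 13 of 18 alternatives.

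Of the 3 transcription factors of the lysosomal gene program, Mitf alone passed the test; whether it differed from the other two was not tested. Mitf (chr6:97807052-98021349) had 41.3, 34.1 and 23.2 CPM at P60, overlapping e16.5, and fell 3.83-fold from P7, a log2 difference of -1.94 (SE 0.353, adjusted p = 0.0265) that passed in 10 of 18 alternatives. Tfe3 had 116, 99.8 and 146 CPM at e16.5, 174, 103 and 130.4 CPM at P7 and 130.2, 167 and 69.8 CPM at P60, which overlapped throughout, and a log2 difference of -0.11 (SE 0.357, adjusted p = 0.902). Tfeb was low, with 11.4, 11.0 and 29.2 CPM, 16.0, 8.06 and 20.9 CPM and 16.9, 7.90 and 5.34 CPM at the 3 ages and a log2 difference of -0.54 (SE 0.671, adjusted p = 0.722). Activity of these factors is set largely by their movement into the nucleus, which RNA levels do not measure.

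Of the 19 pump genes tested, 14 had negative values from P7 to P60 and 1 fell, with a median log2 difference of -0.49 beside -1.05 for the other members. Atp6v1a (chr16:44085402-44139705), the catalytic A subunit that splits ATP, had 146, 203 and 186 CPM at e16.5, 362, 257 and 420.4 CPM at P7 and 80.4, 86.8 and 117 CPM at P60. All 3 ages were apart, and it fell 3.55-fold from P7 to P60, a log2 difference of -1.83 (SE 0.289, adjusted p = 0.0137) that passed in 14 of 18 alternatives. Atp6v1b2, the B subunit that pairs with it, had 144, 148 and 105 CPM, 310.1, 140.1 and 226 CPM and 112, 98.6 and 109 CPM at the 3 ages and a log2 difference of -1.04 (SE 0.318, adjusted p = 0.141). Atp6v1d, of the central stalk, had 78.7, 161 and 183 CPM, 117, 112 and 148 CPM and 54.4, 89.4 and 73.7 CPM and a log2 difference of -0.76 (SE 0.357, adjusted p = 0.312). Both Atp6v1b2 and Atp6v1d had adult libraries below those of P7 without passing the threshold. Atp6v1h, the H subunit that holds detached V1 inactive, had 66.0, 88.3 and 236 CPM, 93.9, 60.9 and 73.2 CPM and 47.0, 38.7 and 17.7 CPM, with the adult libraries below the other 6, and a log2 difference from P7 to P60 of -1.10 (SE 0.507, adjusted p = 0.299).

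In the V0 sector no gene passed. Atp6v0d1, the d subunit that links the stalk to the proton channel, had 56.4, 77.9 and 62.3 CPM at e16.5, 86.4, 64.8 and 87.2 CPM at P7 and 41.9, 17.8 and 22.2 CPM at P60, a log2 difference from P7 of -1.51 (SE 0.396, adjusted p = 0.0938). Atp6v0c, the main proteolipid of the proton-carrying ring, had 69.2, 269.5 and 267 CPM, 142, 199 and 308 CPM and 55.2, 79.8 and 108 CPM and a log2 difference of -1.38 (SE 0.489, adjusted p = 0.192), with adult libraries below those of P7 for both genes. Reads of Atp6v0c can be shared with its pseudogene copies, so its level is uncertain. Atp6v0b, a second proteolipid and a carrier of 2 E-boxes shown above, had 59.3, 87.7 and 92.6 CPM, 72.3, 62.2 and 55.1 CPM and 126, 40.6 and 100.3 CPM at the 3 ages, which overlapped, and a log2 difference from P7 to P60 of 0.53 (SE 0.410, adjusted p = 0.541). The accessory protein Atp6ap1, which helps assemble the pump, had 226, 260.1 and 208 CPM, 318, 135 and 289.9 CPM and 255, 95.7 and 217 CPM and a log2 difference of -0.35 (SE 0.392, adjusted p = 0.687). Atp6ap2, the prorenin receptor and a second assembly factor, had 58.1, 96.4 and 168 CPM, 133, 76.2 and 185 CPM and 47.6, 64.3 and 61.9 CPM and a log2 difference of -1.14 (SE 0.430, adjusted p = 0.211).

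**Figure D2:**
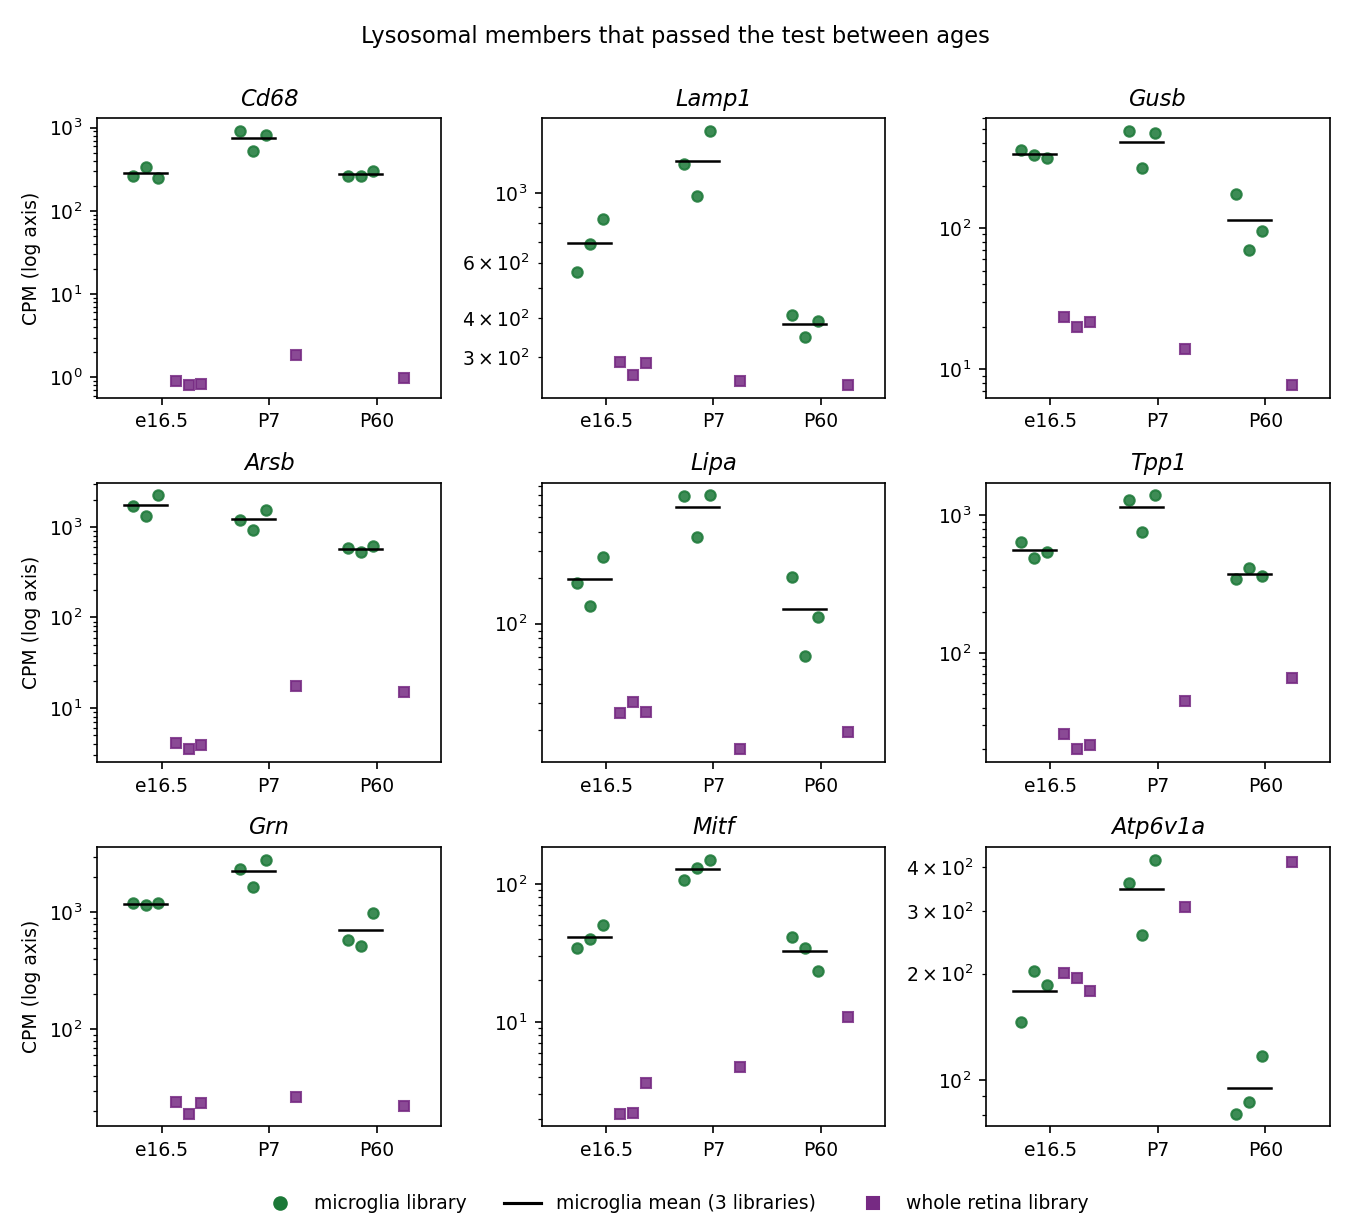
CPM on a log axis of the 9 members that passed the test in any comparison between ages; circles are microglia libraries, black lines their means over 3 libraries and squares whole retina libraries. Except for Arsb, whose mean is highest at e16.5 with libraries that overlap those of P7, each has its highest microglia mean at P7. For Atp6v1a alone do whole retina libraries reach or exceed microglia of the same age.

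The third comparison set the adult against the embryo. Of the 53 tested members, 2 fell from e16.5 to P60 and none rose (3.77%), a share near the 3.36% of all 16019 genes called in either direction and the 2.5% called lower. They were Arsb, which fell 3.02-fold, a log2 difference of -1.59 (SE 0.265, adjusted p = 0.00908) that passed in 18 of 18 alternatives, and Gusb, which fell 2.91-fold, a log2 difference of -1.54 (SE 0.356, adjusted p = 0.0387) that passed in 8 of 18. The median of the tested members was -0.50 beside 0.06 over all genes, and 12 of the 53 were positive, beside 52.0% of all genes. DESeq2 called 8 of the 53, all lower, beside 7.62% of all genes called lower. With 1 library left out at a time, edgeR called Arsb alone without replicate 2 or 3 of P60, replicate 2 or 3 of e16.5, or replicate 1 or 3 of P7. It called 3 members without replicate 1 of P60 or of e16.5. Under scaling by total counts alone, which moved the median of all genes by 0.19 and the split of all calls from 138 higher and 400 lower to 189 higher and 301 lower, Arsb was the 1 member called. Cd68 had a log2 difference of -0.02 (SE 0.260, adjusted p = 0.972) and Mitf of -0.32 (SE 0.342, adjusted p = 0.625), whereas Lamp1 and Atp6v1a had -0.83 (SE 0.244, adjusted p = 0.0895) and -0.89 (SE 0.283, adjusted p = 0.111). The 2 age comparisons with P7 share the P7 libraries and those with P60 share the P60 libraries, so their values are not independent of each other.

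**Figure D3:**
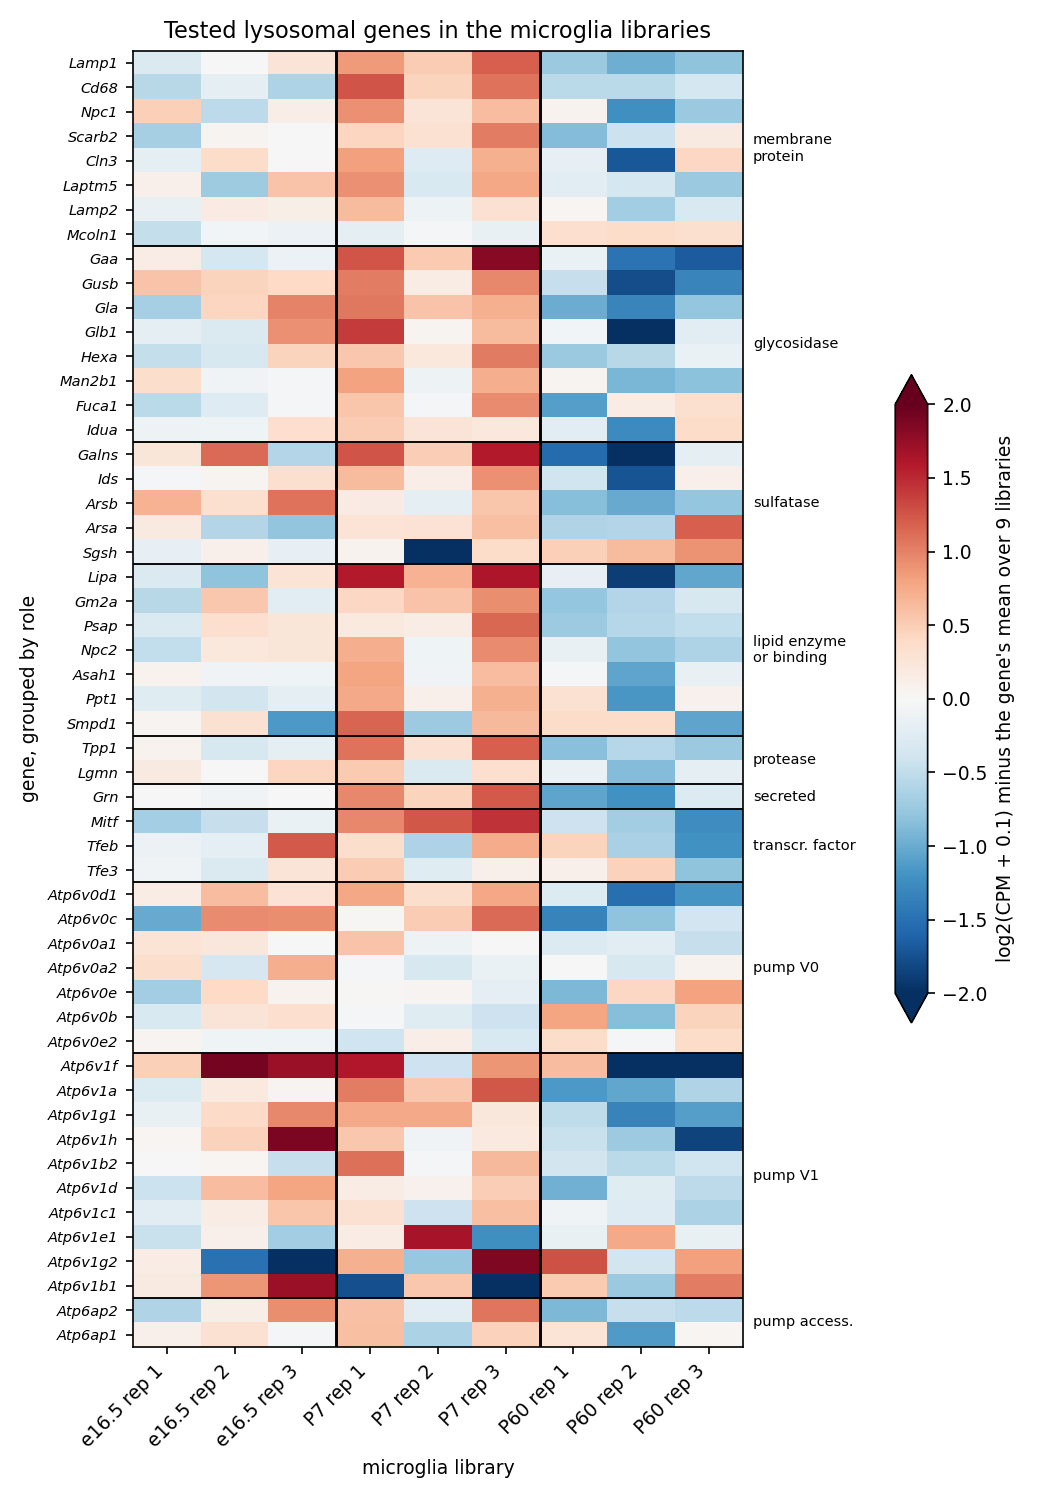
Level of each of the 53 tested members in the 9 microglia libraries, as log2(CPM + 0.1) minus the gene's mean over the 9, with genes grouped by role. Red is above and blue below the gene's mean. Most rows above the pump genes are red at P7 and blue at P60, and P7 replicate 2 is paler than the other P7 libraries. Mcoln1 and Sgsh, which is scarce, are higher at P60 than at P7.

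Microglia and whole retina could be tested against each other at e16.5, where both had 3 libraries. Of the 55 members tested, 37 were higher in microglia and 7 lower (80.0%), beside 63.2% of all 16140 genes called, 33.1% higher and 30.1% lower. The enzymes, membrane proteins and transcription factors were mostly higher, with 29 of 34 higher, 1 lower and a median log2 difference of 2.93 beside -0.13 over all genes. Of the 21 pump genes 8 were higher and 6 lower, shares near the 33.1% and 30.1% of all genes. Their median of 0.27 became -0.13 when total counts alone set the scale, which moved the median of all genes by -0.38 and left 5 pump genes higher and 6 lower. Fold values and log2 differences below come from a fit scaled over these 6 libraries, whereas the CPM were scaled over all 14. The fit gives log2 differences above those of the CPM ratios. Folds are thus larger for genes higher in microglia and smaller for genes lower in microglia, and small differences can change sign.

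**Figure D4:**
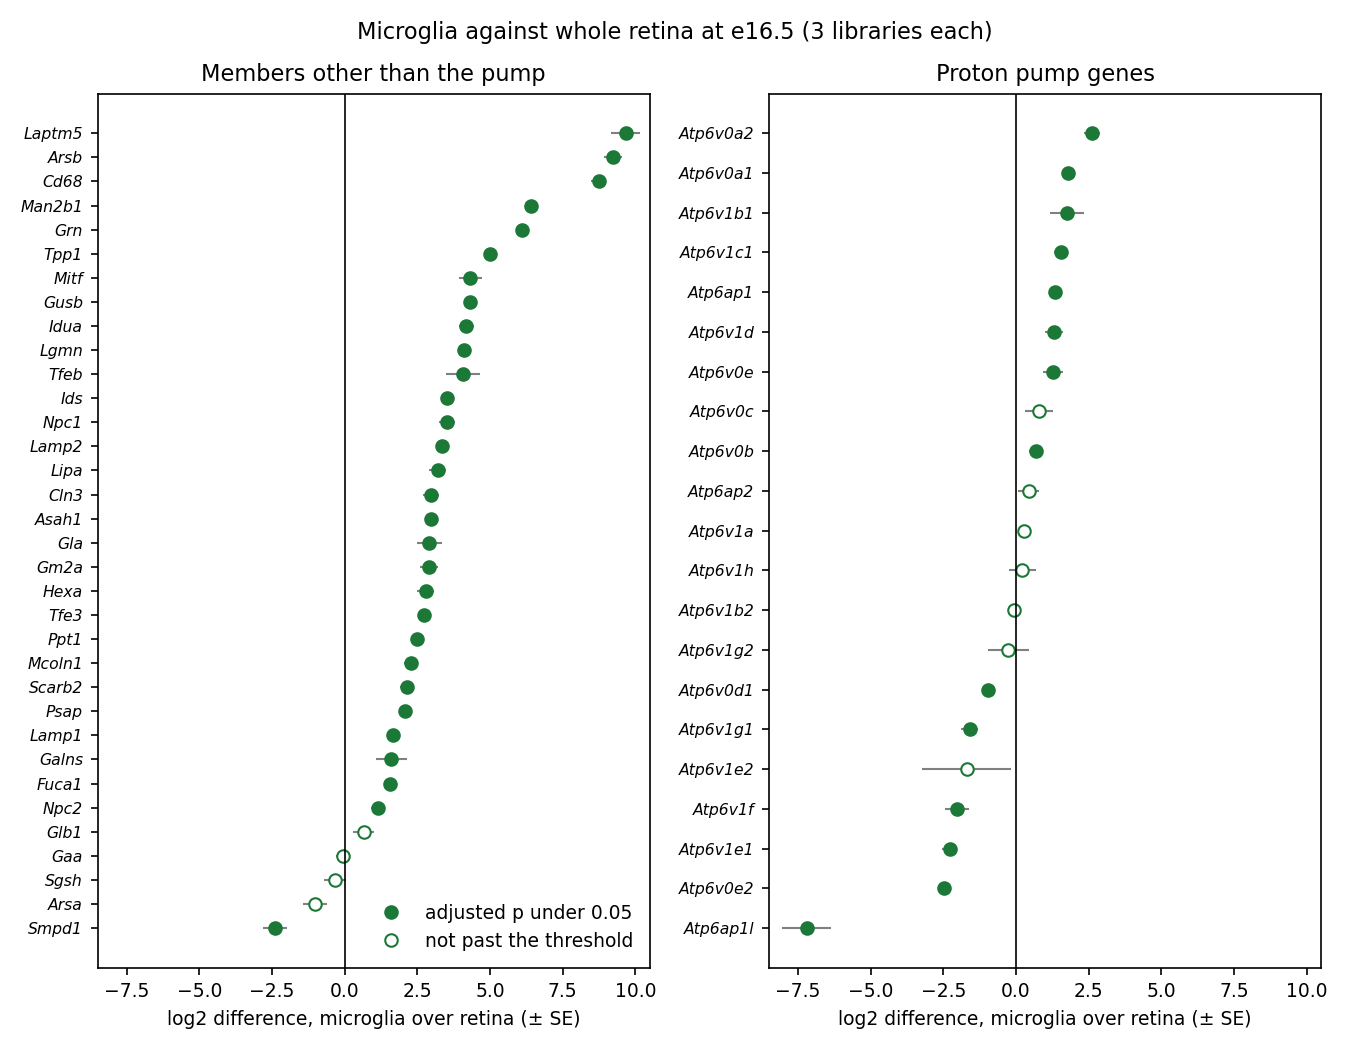
Log2 difference between microglia and whole retina at e16.5, with its SE, for the 34 members other than the pump (left) and the 21 pump genes tested (right), from 3 libraries of each kind. Filled circles passed an adjusted p of 0.05; most circles on the left lie to the right of 0 and those on the right fall on both sides. The value of Atp6ap1l depends on the prior count, since all microglia libraries of that age hold 0 counts.

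Laptm5, Arsb and Cd68 showed the largest differences of all members and lay under 5 CPM in whole retina at e16.5. Laptm5 had 2.52, 1.47 and 1.92 CPM in the whole retina libraries and was 814-fold higher in microglia, a log2 difference of 9.67 (SE 0.497, adjusted p = 1.36e-05). Arsb had 4.04, 3.46 and 3.83 CPM in whole retina and a log2 difference of 9.24 (SE 0.313, adjusted p = 4.22e-06), or 603-fold. Cd68 had 0.908, 0.807 and 0.835 CPM in whole retina and a log2 difference of 8.74 (SE 0.256, adjusted p = 3.43e-06), or 428-fold. For each of them every microglia library of that age lay above every whole retina library. Man2b1 with 22.7, 21.1 and 19.9 CPM, Grn with 24.02, 19.03 and 23.74 CPM and Tpp1 with 25.6, 19.9 and 21.3 CPM in whole retina followed. Their log2 differences were 6.42 (SE 0.223, adjusted p = 4.56e-06), 6.10 (SE 0.195, adjusted p = 3.74e-06) and 5.01 (SE 0.211, adjusted p = 7.27e-06).

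All 8 membrane protein genes were higher in microglia, of which Lamp1 had the smallest difference. Lamp1 had 289, 263 and 287 CPM in whole retina and a log2 difference of 1.67 (SE 0.185, adjusted p = 0.000349). Lamp2 had 101, 108 and 102 CPM there and a log2 difference of 3.36 (SE 0.166, adjusted p = 1.17e-05), and Mcoln1 had 25.5, 21.8 and 25.9 CPM and 2.27 (SE 0.214, adjusted p = 0.000181). The transcription factors were all higher too, with log2 differences of 4.33 (SE 0.385, adjusted p = 0.000137) for Mitf, 4.06 (SE 0.581, adjusted p = 0.00102) for Tfeb and 2.73 (SE 0.218, adjusted p = 8.39e-05) for Tfe3. In whole retina Mitf had 2.17, 2.18 and 3.64 CPM, Tfeb 1.11, 1.33 and 1.52 CPM and Tfe3 24.02, 20.88 and 25.01 CPM. Of the enzymes, Smpd1 was the exception, with 70.6, 60.5 and 62.1 CPM in whole retina against 10.8, 12.9 and 4.64 CPM in microglia and a log2 difference of -2.40 (SE 0.417, adjusted p = 0.00227). Gaa, Glb1, Arsa and Sgsh did not pass the test, with log2 differences of -0.07, 0.66, -1.03 and -0.33.

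At the later ages whole retina had 1 library each, so these differences have no replicate check and were not tested. On the scale of CPM plus 0.1, and over the 53 members with at least 1 CPM in either tissue at P7, 32 had a microglia mean at least 2-fold above whole retina and 9 at least 2-fold below it, beside 28.4% and 41.7% of all such genes. At P60 the counts were 29 and 14 of 56 such members, beside 31.1% and 42.0%. Among the 34 members other than the pump they were 29 above and 2 below at P7, and 25 above and 2 below at P60. Among the pump genes they were 3 above and 7 below of 19 at P7, and 4 above and 12 below of 22 at P60. With the members under 1 CPM included the counts over all 59 were 34 above and 13 below at P7, the latter falling to 8 with a pseudocount of 1 CPM, and 30 above and 15 below at P60. Atp6v1a, with 309.8 CPM in whole retina at P7 and 413 CPM at P60, stood at 112% of it in microglia at P7 and 23.0% at P60. Cd68 stayed 284-fold above whole retina at P60 and Grn 31.7-fold, while Psap, at 731 CPM in adult retina, was 1.18-fold above it. Smpd1 stood at 10.4% of whole retina at P7 and 8.19% at P60.

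The pump genes are described by subunit, without a test that subunits differ. Of the V0 sector, the a subunits, which carry the half-channels for protons, were higher in microglia at e16.5. Atp6v0a1 had 194, 189 and 160 CPM in microglia and 72.4, 58.8 and 72.0 CPM in whole retina at e16.5, a log2 difference of 1.79 (SE 0.177, adjusted p = 0.000218). Atp6v0a2 had 244, 152 and 315 CPM and 52.0, 46.6 and 50.7 CPM, a log2 difference of 2.62 (SE 0.282, adjusted p = 0.000317). Whole retina reached 246 CPM of Atp6v0a1 at P60 against 133, 137 and 117 CPM in microglia, so the order turned, while Atp6v0a2 stayed at 55.4 CPM against 189, 152 and 201 CPM. The proteolipid genes had 64.7, 61.5 and 66.3 CPM of Atp6v0b and 156, 138 and 160.3 CPM of Atp6v0c in whole retina at e16.5, with log2 differences of 0.68 (SE 0.221, adjusted p = 0.0304) and 0.78 (SE 0.473, adjusted p = 0.187), so Atp6v0b alone passed although its CPM overlapped between the tissues. Atp6v0a4, the kidney form, was at 0 counts in all 9 microglia libraries.

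The e subunit, a small membrane protein of V0, is encoded by a pair of genes that differed in opposite directions. Atp6v0e had 20.6, 44.2 and 35.1 CPM in microglia and 19.0, 16.8 and 17.4 CPM in whole retina at e16.5, a log2 difference of 1.27 (SE 0.351, adjusted p = 0.0164), which passed in 8 of 15 alternatives. Atp6v0e2 had 13.9, 12.6 and 12.7 CPM in microglia and 97.8, 83.1 and 100.1 CPM in whole retina, a log2 difference of -2.48 (SE 0.213, adjusted p = 0.000118). At P60 Atp6v0e2 reached 307 CPM in whole retina and had 17.4, 13.1 and 17.3 CPM in microglia, whereas Atp6v0e had 8.62 CPM in whole retina and 17.8, 44.5 and 58.6 CPM in microglia. Atp6v0d1 was lower in microglia at e16.5, with 172, 157 and 167 CPM in whole retina and a log2 difference of -0.97 (SE 0.183, adjusted p = 0.00331). Its partner form Atp6v0d2, known from osteoclasts, had 0.246, 0.153 and 0.202 CPM at e16.5, 0.892, 0.340 and 1.30 CPM at P7 and 0.293, 3.95 and 0.178 CPM at P60, and was not tested. P60 replicate 2 held the highest of these and whole retina libraries held at most 0.0712 CPM.

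In the V1 sector, 3 genes of the outer stalks and stalk base were lower in microglia. Atp6v1e1, the E subunit of the outer stalk, had 20.5, 29.8 and 17.1 CPM in microglia and 137, 146 and 139 CPM in whole retina at e16.5, a log2 difference of -2.28 (SE 0.256, adjusted p = 0.000376). Atp6v1g1, the G subunit beside it, had 28.1, 40.5 and 61.0 CPM and 175, 175 and 154 CPM, a log2 difference of -1.59 (SE 0.292, adjusted p = 0.00287). Atp6v1f, of the central stalk, had 5.57, 15.2 and 13.4 CPM and 63.4, 57.5 and 60.3 CPM, a log2 difference of -2.04 (SE 0.406, adjusted p = 0.00409). In each case all microglia libraries lay below all whole retina libraries. They stood at 20.6%, 19.9% and 6.83% of whole retina at P60. With each gene's length in each library as an offset, the value of Atp6v1e1 became -3.70, that of Atp6v0e2 -1.22, that of Atp6v0a1 2.95 and that of Tfe3 1.68, all past the threshold. The head subunits and Atp6v1h did not pass the test, with log2 differences of 0.27 (SE 0.175, adjusted p = 0.216) for Atp6v1a, -0.06 (SE 0.185, adjusted p = 0.781) for Atp6v1b2 and 0.22 for Atp6v1h. By mean CPM microglia stood at 93.3%, 74.2% and 90.6% of whole retina for these genes, so Atp6v1a and Atp6v1h changed sign with the scaling.

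Higher V1 genes in microglia were Atp6v1c1, Atp6v1d and Atp6v1b1. Atp6v1c1, the C subunit that controls joining of the sectors, had 108, 139 and 184 CPM in microglia and 61.6, 65.3 and 64.0 CPM in whole retina, a log2 difference of 1.54 (SE 0.225, adjusted p = 0.00111) that was 0.93 with the length offset. Atp6v1d had 75.5, 73.4 and 70.3 CPM in whole retina and a log2 difference of 1.31 (SE 0.314, adjusted p = 0.00904). Atp6v1b1, the kidney form of the B subunit, was near 1 CPM in both, with 0.901, 1.53 and 2.83 CPM and 0.858, 0.712 and 0.442 CPM, a log2 difference of 1.74 (SE 0.578, adjusted p = 0.0333) that passed in 4 of 14 alternatives. Of the accessory genes, Atp6ap1 was higher, with 123, 114 and 121 CPM in whole retina and a log2 difference of 1.33 (SE 0.158, adjusted p = 0.000485), and Atp6ap2 did not pass, at 0.44 (SE 0.363, adjusted p = 0.320). Atp6ap1l, a relative of Atp6ap1, had 1.31, 1.19 and 1.08 CPM in whole retina and 0 counts in the 3 e16.5 microglia libraries. Against a floor of 3 counts over these libraries it was at least 15.9-fold lower in microglia (edgeR adjusted p = 0.00144).

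The minor forms of the V1 subunits were scarce in microglia. Atp6v1c2 reached 2.93 CPM in P60 replicate 1 and was at 0 counts in 4 of the other 8 libraries. Atp6v1e2, a testis form, had 0, 2.91 and 0 CPM at e16.5 and was at 0 counts in the 6 later libraries, beside 4.34, 3.84 and 4.08 CPM in whole retina at e16.5, a log2 difference of -1.70 (SE 1.53, adjusted p = 0.361). Atp6v1g3 was highest in P7 replicate 3, at 4.91 CPM, and under 1 CPM in the other 8 libraries. Atp6v1g2, the form of neurons, had 5.98, 1.84 and 1.08 CPM at e16.5, 8.84, 3.14 and 19.9 CPM at P7 and 13.1, 4.12 and 9.52 CPM at P60 in microglia, with no difference past the threshold between ages. In whole retina it had 5.10, 3.94 and 4.77 CPM at e16.5, 21.3 CPM at P7 and 35.3 CPM at P60.

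Shares of each subunit were computed per gene length, from FPKM rescaled to sum to 1000000 in every library, and have no test. Tcirg1, the a3 form used by osteoclasts and macrophages and not itself a member, made up 31.9% to 68.3% of subunit a in the 9 microglia libraries and 2.50% to 4.46% in the 5 whole retina libraries. Atp6v0a1 made up 17.2% to 53.0% in microglia and 32.8% to 60.2% in whole retina, and Atp6v0a2 5.58% to 43.9% and 35.2% to 64.2%. Atp6v0e made up 35.3% to 77.4% of subunit e in microglia and 5.35% to 33.9% in whole retina. Only for Tcirg1 and for the pair of e genes were the ranges of the 2 tissues apart among the shares of subunits a, e and G. Atp6v1g1 made up 57.8% to 98.3% of subunit G in microglia and 74.5% to 98.4% in whole retina. Single forms held nearly all of the other subunits: Atp6v1b2 at least 95.5% of B, Atp6v1c1 at least 96.0% of C, and Atp6v0d1 and Atp6v1e1 at least 88.2% and 88.5% of d and E, in every library.

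**Figure D5:**
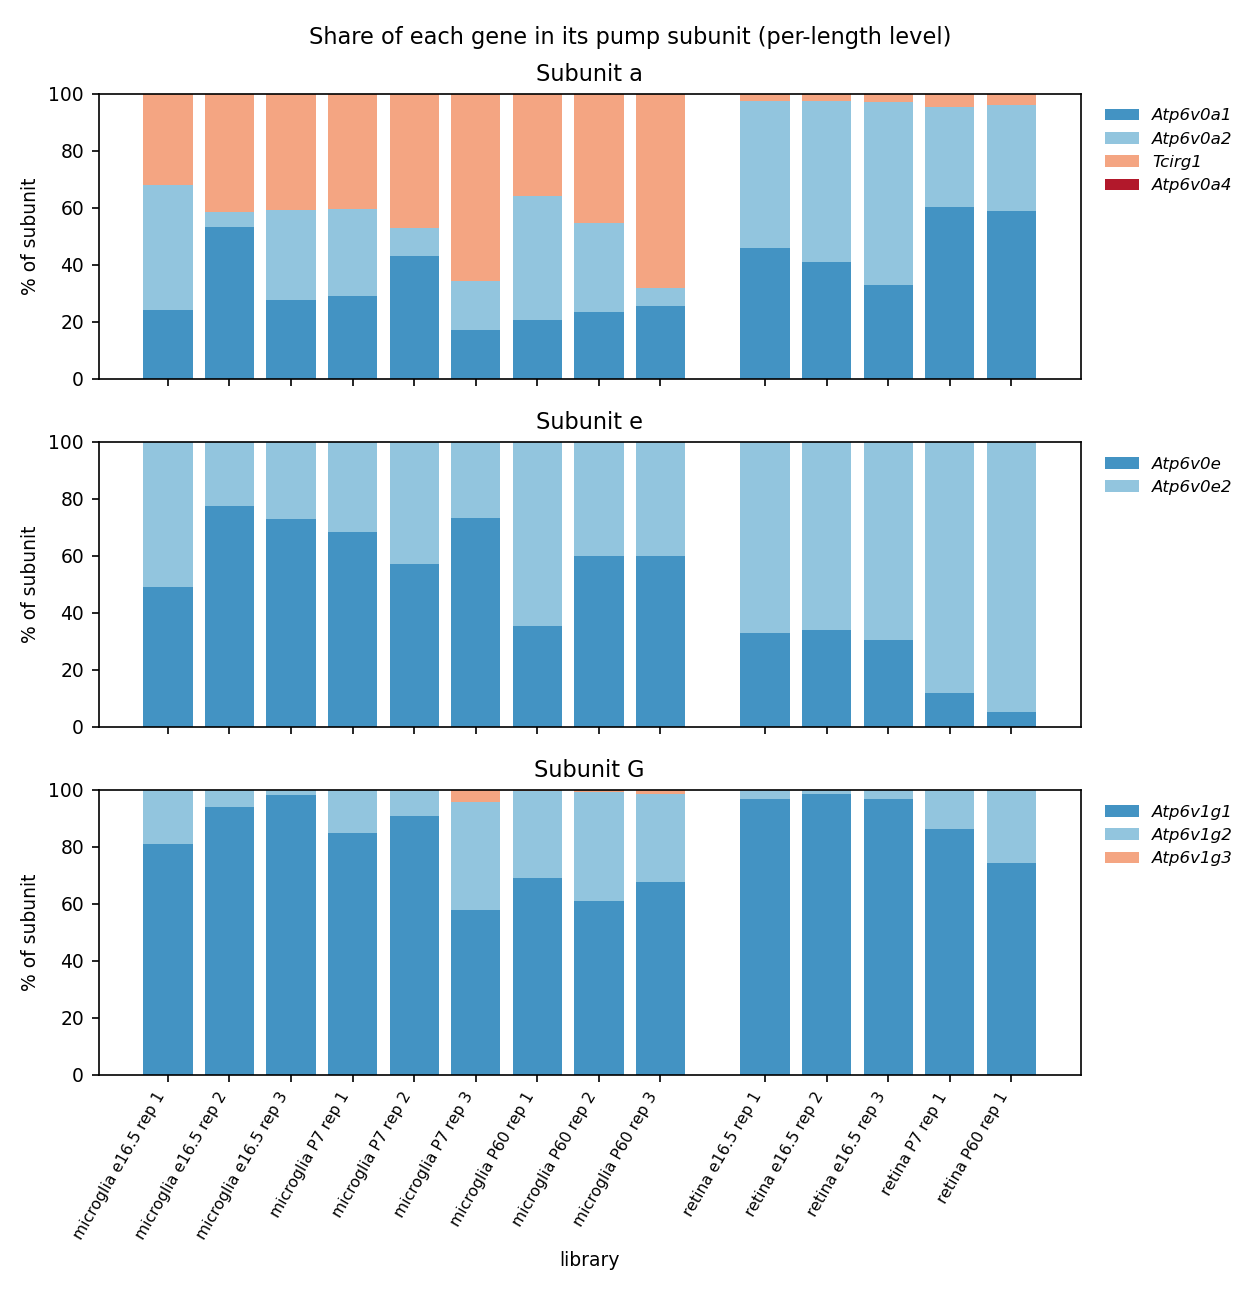
Share of each gene in the summed per-length level of its pump subunit, in percent, for subunits a, e and G in each of the 14 libraries. Tcirg1 takes 31.9% to 68.3% of subunit a in microglia and at most 4.46% in whole retina, and Atp6v0e takes a larger share of subunit e in every microglia library than in any whole retina library.

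Tcirg1 itself had 153, 246 and 158 CPM at e16.5, 210, 190.5 and 299 CPM at P7 and 232, 231 and 382 CPM at P60 in microglia. In whole retina it had 1.87, 2.09 and 1.87 CPM at e16.5, 5.48 CPM at P7 and 5.22 CPM at P60. It was 123-fold higher in microglia at e16.5, a log2 difference of 6.94 (SE 0.303, adjusted p = 7.98e-06), and did not pass between P7 and P60, at 0.32 (SE 0.314, adjusted p = 0.638).

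On the same per-length scale, the most abundant members in microglia, by the median over the 9 libraries, were Laptm5 at 1584, Grn at 1041, Lgmn at 533, Psap at 513 and Cd68 at 511 of 1000000. Laptm5 spread from 649.5 to 3859 over the libraries, a range that spans the median of Grn, and Lgmn, Psap and Cd68 had medians closer together than their own spread. The order differed by age: Laptm5 and Grn led at each, but Cd68 followed them at P7, with a median of 1201 against 594 for Psap and 538 for Lgmn, and at P60, with 511 against 387 and 459.8. At P60 the medians of Atp6ap1 at 476 and Fuca1 at 424 also exceeded that of Psap, but their libraries spread widely. Atp6ap1 had 598, 54.6 and 476 and Fuca1 149.9, 424 and 494, against 373, 412 and 387 for Psap. In whole retina at e16.5 the medians of Laptm5, Cd68 and Grn were 1.23, 0.586 and 12.5, while Atp6v1e1 stood at 233 and Psap at 98.2. By the median over the 9 libraries, Atp6ap1 led the pump genes of microglia at 476, with Atp6v0c at 269, Atp6v0a1 at 219 and Atp6v1a at 194. Atp6ap1 spread from 54.6 to 687 over these libraries.

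Other genes of the lysosome were counted in 6 lists of 105 genes. Of the 16 other proteases, 1 was called higher from e16.5 to P7, 3 lower from P7 to P60 and 1 lower from e16.5 to P60. In the same comparisons 0.2%, 1.35% and 3.36% of all genes were called in either direction, and counts of 1 rest on a single gene. Ctsb, cathepsin B, had 2427, 2311 and 2897 CPM at e16.5, 9154, 4897 and 9577 CPM at P7 and 1396, 904 and 959.7 CPM at P60. It rose 3.04-fold to P7, a log2 difference of 1.60 (SE 0.278, adjusted p = 0.0484), and fell 7.05-fold to P60, at -2.82 (SE 0.290, adjusted p = 0.00121). Cathepsins D and L (Ctsd, Ctsl) also fell from P7 to P60, with log2 differences of -1.65 (SE 0.265, adjusted p = 0.0152) and -1.38 (SE 0.296, adjusted p = 0.0469). Of 22 tested other membrane proteins and transporters, 2 fell from P7 to P60, beside 1.09% of all genes called lower. They were Cd63, a tetraspanin, with -2.07 (SE 0.383, adjusted p = 0.0285) and Mfsd1, a dipeptide transporter, with -1.72 (SE 0.342, adjusted p = 0.0362).

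In the lists of 23 other hydrolases and activators, 11 pump partners and assembly factors, 9 genes of mannose 6-phosphate sorting and 22 genes of TFEB control, edgeR called none between ages. Against whole retina at e16.5, 13 of 15 tested proteases, 19 of 23 hydrolases and 17 of 23 membrane proteins were higher in microglia, with 0, 1 and 3 lower. The largest of these were Ctss, cathepsin S, and Slc29a3, a nucleoside transporter, with log2 differences of 9.38 (SE 0.291, adjusted p = 3.68e-06) and 8.13 (SE 0.235, adjusted p = 3.43e-06). Hyal2, a hyaluronidase, was lower at -3.19 (SE 0.806, adjusted p = 0.0116). In the next 3 lists the shares called higher were nearer to the 33.1% of all genes. For the share called lower, only the list of TFEB control came near the 30.1% of all genes. Pump partners had 4 of 11 higher and none lower, among them Tcirg1 and Rogdi. Mannose 6-phosphate sorting had 4 of 9 higher and 1 lower, the lower one being Igf2r, the large receptor that carries tagged enzymes, at -3.45 (SE 1.09, adjusted p = 0.0281). Of the genes of TFEB control, 9 of 22 were higher and 6 lower. Of the Rag GTPases, which hold mTORC1 at the lysosome, Rragc was higher at 1.37 (SE 0.184, adjusted p = 0.000783) and Rragb lower at -5.08 (SE 1.10, adjusted p = 0.00581).

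In the authors' deposited table, an adjusted p under 0.05 was given for 3 of 58 members with a value between e16.5 and P7. All were higher at P7, and 3.57% of all genes with a value passed. The authors' deposited table gave 22 of 55 members between P7 and P60, all higher at P7, beside 11.6% of all genes. Between e16.5 and P60 it gave 6 of 58 members, all higher at e16.5, a smaller share than the 15.4% of all genes. For microglia against whole retina at e16.5, the authors' deposited table gave 40 of 58 members, 32 of them higher in microglia, beside 50.3% of all genes.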

How the data were processed

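The authors deposited whole-number counts per gene, treated here as rounded estimated counts because Salmon 0.9.1, a tool that gives estimates, is listed with DESeq2 1.20.0 and build GRCm38.p6 per the submitters' processing notes, which give no roles. Per the file headers, the authors also deposited FPKM, which imply a gene length that differs between libraries, log2 fold changes and adjusted p-values. Here genes were tested with edgeR 4.0.16 (R 4.3.3; quasi-likelihood test, TMM scaling, its own filter on low counts, Benjamini-Hochberg adjustment over all genes tested, threshold 0.05). The 9 microglia libraries shared 1 fit for the 3 age comparisons, and the 6 libraries of e16.5 another. The fit was tested on simulated counts. For P7 against e16.5 it recovered 4.48%, 23.9% and 62.1% of genes changed 2-fold, 4-fold and 8-fold. These were 67, 67 and 66 of 15545 genes, drawn only from genes above a minimum level. In the real comparison of these ages 0.2% of all genes were called, and how recovery depends on that share was not tested. For microglia against whole retina it recovered 5.97%, 34.3% and 65.2%, with 67, 67 and 66 of 15764 genes changed by these folds. In the real tissue comparison 63.2% of all genes were called, and the adjustment of p depends on that share. The simulated recovery for that comparison thus does not describe the real test. FPKM were rescaled to sum to 1000000 for levels per length. Positions are those of GENCODE on GRCm38.

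Members and lists were chosen with earlier results of these data known. Values by library are given for members past the threshold between ages, the 2 most abundant per role, the 6 largest differences from whole retina in each direction, a fixed set of markers and regulators, and all forms of pump subunits with several genes. Not every library is covered for each of them, above all for whole retina at P7 and P60 and for some pump genes. Other members and pathway genes are named to complete their groups, and were chosen after their values were seen. Alternatives were other scalings and filters, DESeq2 1.42.0, limma-voom (limma 3.58.1), a length offset, other sets of libraries, a replicate block and leaving out each library. Replicates of microglia were pools, and no label says that replicates came from separate animals, so p-values measure the spread between these samples, which may be technical. No pair of replicates agreed within counting noise (chi-square per gene from 6.63 to 112.5).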

Additional observations from a re-analysis of the deposited data

Results flagged for a closer look

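For 5 of the members that passed the test between ages, every microglia library moved one way and whole retina the other way. Members that did not pass are not listed, and the difference was not tested, since whole retina had 1 library at P7 and 1 at P60. From P7 to P60 Lipa had a log2 difference of -2.189 in microglia and a log2 ratio of 0.369 in whole retina. Tpp1 had -1.584 in microglia and 0.544 in whole retina over the same ages. Mitf had -1.936 in microglia and 1.194 in whole retina, where its level is low. Atp6v1a, the catalytic pump subunit, had -1.828 in microglia and 0.414 in whole retina. From e16.5 to P60 Arsb had -1.594 in microglia and 1.967 in whole retina, which held 3.46 to 4.04 CPM of it at e16.5 and 15.03 CPM at P60.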

How the results depend on the processing

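From e16.5 to P7, where edgeR called 0 members, 4 were called by DESeq2, 2 when only these groups were fitted, and 1 each with limma-voom, a filter of 5 CPM in 3 libraries or total counts alone. From P7 to P60, where it called 8, the count was 20 with DESeq2, 5 with total counts alone, 2 with the length offset (Lamp1 and Grn) and 2 when only these groups were fitted (Lamp1 and Atp6v1a). From e16.5 to P60, where it called 2, the count was 8 with DESeq2 and 1 with the length offset, with total counts alone or when only these groups were fitted. The cause of these changes was not tested. With 1 library left out at a time the counts ran from 0 to 0, from 0 to 8 and from 1 to 3 for these comparisons, and from 40 to 46 for microglia against whole retina. At P7, 8 instead of 13 members were at least 2-fold below whole retina with a pseudocount of 1 CPM. No direction of a called value reversed, and of the values for single members 660 stayed on their side of the threshold, 80 lost it and 14 gained it. These totals pool the age calls with age values that were not called and with tissue differences. The calls between ages alone were less stable. Of the 8 from P7 to P60, Lamp1 passed most often, in 17 of 18 alternatives, and Lipa least often, in 7. From e16.5 to P60 Arsb passed in 18 and Gusb in 8.

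Whether samples that share a replicate number were paired is not stated in the labels and was not tested. The correlation of their deviations ran from -0.004 to 0.221, and 10 of 12 correlated best with their own number. With the replicate block the count was 0 from e16.5 to P7, 14 from P7 to P60, 3 from e16.5 to P60 and 40 for microglia against whole retina. Over all genes, the calls from P7 to P60 went from 217 to 367 with the block.

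Limits: in simulated counts of the first age comparison, 4.48% of 2-fold and 23.9% of 4-fold changes were recovered. These shares hold for the simulated setting and not for each member. Members that missed the threshold cannot be called alike between ages. Microglia libraries of 8996298 to 17446905 counts leave genes of a few CPM imprecise.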
